A study of Homo sapiens with 2 samples.

Results

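Protocadherins are the largest group of the cadherin superfamily of calcium-dependent adhesion proteins. The clustered genes lie in tandem in the alpha, beta and gamma clusters of chromosome 5, where each variable exon has its own promoter. In the alpha and gamma clusters a variable exon is spliced to constant exons shared by the whole cluster, whereas beta genes have no constant exons. Neurons choose among these promoters and use the resulting mixture of proteins to tell their own branches from those of other cells. The non-clustered genes are scattered over several chromosomes and act mostly as single adhesion and signalling proteins, and several of both kinds are silenced by promoter methylation in tumours.

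The protocadherins are here all probe sets whose annotated symbols each begin with PCDH, either 1 symbol alone or several. There were 89 such probe sets of 54613, listing 63 genes of 21357. The clustered genes had 58 probe sets listing 50 genes, and the non-clustered genes had 31 probe sets listing 13. By cluster, 13 probe sets listed 15 alpha genes, 25 listed 18 beta genes and 20 listed 17 gamma genes. Of 66 protein-coding PCDH genes in the reference gene table, 59 were listed. The 2 probe sets that list PCDH20 together with the non-coding LINC02339 do not follow the rule and were not used here.

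The RNA came from CL1-0, an established human lung adenocarcinoma cell line, on 1 Affymetrix expression array per sample. One sample, called FDFT1, carried a vector expressing FDFT1 (squalene synthase, the first enzyme committed to sterol synthesis), and its reference carried a control vector. Both were stably transduced and selected with puromycin for 2 weeks, and whether each was a pool or a single clone is not given in the sources used here. With 1 array per group, differences compare these 2 arrays only and carry no p-value or replicate error.

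The median deposited signal was 12.1 on the FDFT1 array and 12.3 on the control vector array. No probe set was annotated to FDFT1 alone. That count took only probe sets listing 1 gene, and the level of the transgene was not examined. The cells are labelled as type II alveolar cells. Of 8 alveolar type II markers with a probe set, 5 were measured in the sense given below, while SFTPD, NAPSA and SLC34A2 stayed under a signal of 12.2 on both arrays. SFTPC, the surfactant protein that defines the type, had signals of 16.9 (FDFT1) and 29.3 (control vector) on 1 of its 5 probe sets (-0.69), and ABCA3 was also below 0 (-0.42). SFTPB (0.25), LAMP3 (0.26) and NKX2-1 (0.02) were above 0 by their brightest probe set, and the median of the 5 was 0.02. For SFTPB, 1 of 2 measured probe sets was above 0. Among 4 epithelial markers 3 were measured, namely EPCAM (0.35), KRT8 (0.43) and KRT18 (-0.62), and E-cadherin (CDH1) was under 12.2 on both arrays. The measured ones were dim, with at most 20.1 (KRT18, control vector), and EPCAM reached 12.2 on the FDFT1 array alone. Among 5 neural markers 4 were measured. Of these MAP2 (4223 and 3984, difference 0.19) and TUBB3 (5411 and 5965, difference -0.03) were bright, FDFT1 first in each pair. SYP (10.8 and 22.8, at most -0.90) reached 12.2 on the control vector array alone. NCAM1 (12.4 and 3.51, at least 0.13) reached it on the FDFT1 array alone, on 1 of its 7 probe sets. GFAP was under 12.2 on both arrays. The part of the cells' identity in the differences was not tested.

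The promoters of the clustered genes show what these genes have in common and what separates them from the non-clustered ones. A short element with CGCT at its core, known to matter for their transcription and for binding of the insulator protein CTCF nearby, stands shortly before the start of most clustered protocadherins. It is printed for some of the genes that had a measured probe set or share one, in capitals as the form typical of the cluster. Matches to a form typical of another cluster are not marked, such as the tggcgct near the end of the PCDHGB5 stretch. The sequences are RefSeq's on GRCh38.p14, chromosome 5, plus strand, and lie wholly upstream of the annotated start.
PCDHA5 (chr5:140821529-140821587): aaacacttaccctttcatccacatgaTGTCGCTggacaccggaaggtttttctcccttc
PCDHA6 (chr5:140827884-140827942): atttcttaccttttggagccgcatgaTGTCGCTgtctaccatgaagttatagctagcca
PCDHB2 (chr5:141094531-141094589): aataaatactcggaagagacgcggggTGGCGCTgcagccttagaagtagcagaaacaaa
PCDHB5 (chr5:141135166-141135205): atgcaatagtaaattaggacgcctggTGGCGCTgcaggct
PCDHB13 (chr5:141213852-141213910): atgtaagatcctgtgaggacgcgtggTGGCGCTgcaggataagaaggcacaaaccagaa
PCDHB14 (chr5:141223250-141223308): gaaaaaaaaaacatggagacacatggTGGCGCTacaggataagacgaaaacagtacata
PCDHGA1 (chr5:141330393-141330450): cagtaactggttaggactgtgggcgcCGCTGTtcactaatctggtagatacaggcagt
PCDHGB5 (chr5:141397853-141397910): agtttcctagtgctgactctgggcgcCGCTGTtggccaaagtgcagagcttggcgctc

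The 3 forms were read off these promoters after they had been inspected, so their shares describe the family and are no test. RefSeq windows were held for 41 of the 50 clustered and 12 of the 13 non-clustered genes, and the 250 bases before each start were searched. On the gene's strand TGTCGCT occurred before 10 of 13 alpha genes (76.9%), against 0.85% of all 27305 genes with a window. TGGCGCT occurred before 12 of 14 beta genes (85.7%), against 2.04% of all genes. CGCTGT occurred before 12 of 14 gamma genes (85.7%) and 6 of 13 alpha genes, against 5.57% of all genes. On either strand the shares over all genes were 1.62%, 3.82% and 10.6% in the same order. The last form overlaps the other ones by its CGCT, so a single stretch can match more than 1 form. The forms were not confined to their own cluster. TGTCGCT also occurred before 1 of 14 beta and 3 of 14 gamma genes, TGGCGCT before 2 of 14 gamma genes, and CGCTGT before 1 of 14 beta genes.

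At least 1 form stood before 35 of 41 clustered genes (85.4%) and 1 of 12 non-clustered genes (8.33%), against 7.91% of all genes. The non-clustered match was before the second annotated start of PCDH15, a cadherin of hair cell tip links. The clustered genes without a match were PCDHA9, PCDHAC1, PCDHB1, PCDHB8, PCDHGA11 and PCDHGB7. Of these, PCDHA9 and PCDHAC1 had measured probe sets and the others did not. The core CGCT alone was found on the gene's strand before 12 of 13 alpha, 13 of 14 beta and 14 of 14 gamma genes. On that strand it stood before 7 of 12 non-clustered genes and 51.9% of all genes. On either strand the clustered counts were the same, against 11 of 12 non-clustered genes and 67.2% of all genes. The core on either strand thus did not separate the groups. The element lay close to the start, at a median of 54.5 bases for the alpha form in alpha genes, 64.5 for the beta form in beta genes and 48.5 for the gamma form in gamma genes.

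**Figure D1:**
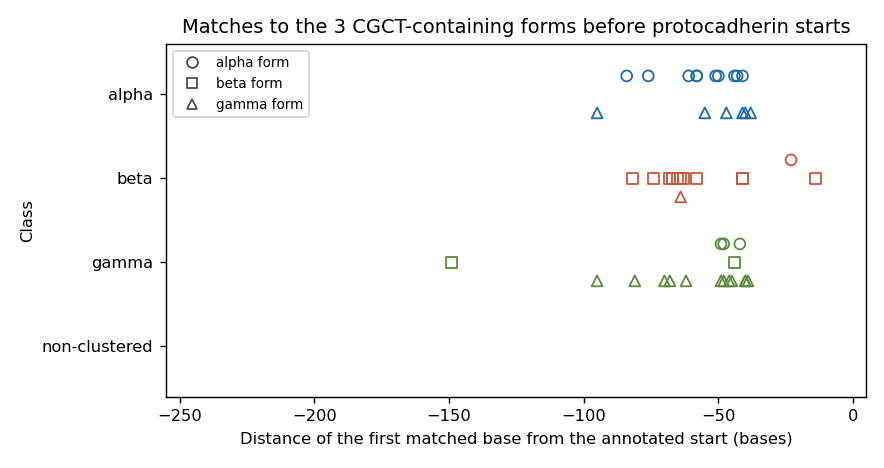
Distance in bases from the annotated start (x axis) of each match to the alpha form (TGTCGCT, circles), beta form (TGGCGCT, squares) and gamma form (CGCTGT, triangles) on the gene's strand, by class (rows), in the first listed promoter window of each gene. All matches in clustered genes but 1, a beta form 149 bases before PCDHGC3, lie within 95 bases of the start (alpha form in alpha genes 41 to 84, beta form in beta genes 14 to 82, gamma form in gamma genes 39 to 95), and the non-clustered row is empty at these first starts.

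Most protocadherin probe sets were dim on both arrays. Differences are given as FDFT1 minus control vector on the log2 scale, after the FDFT1 array was multiplied by 1.08, which removes the median difference of -0.11 between the arrays. Signals under a floor of 12.2, the median of all signals, were then set to that floor, and a probe set counts as measured if it reached the floor on at least 1 array. Reaching this floor does not mean that a transcript was detected. By this rule 31 of the 89 protocadherin probe sets were measured (34.8%), against 54.7% of all probe sets. The remaining 58 were under the floor on both arrays, and their differences have no order.

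The gamma probe sets were almost all under the floor. Only 2 of 20 (10%) were measured, against 7 of 13 for alpha (53.8%), 10 of 25 for beta (40%) and 12 of 31 for the non-clustered genes (38.7%). These shares cover the clusters unlike. No gamma probe set listed all 17 gamma genes, whereas 2 measured alpha probe sets listed all 15 alpha genes. Gamma genes that no probe set listed are not covered, so the cluster as a whole was not measured. The 18 unmeasured gamma probe sets had signals of 0.218 to 9.6 on the FDFT1 array and 0.208 to 9.7 on the control vector array. They include all probe sets of the C-type genes PCDHGC3, PCDHGC4 and PCDHGC5, and the 1 that lists 7 gamma genes at once (0.508 and 6.11, FDFT1 first). The 6 unmeasured alpha probe sets stayed under 1.5 on both arrays, and the 15 unmeasured beta probe sets had at most 9.38 with FDFT1 and 10.4 with control vector.

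Among the non-clustered genes, the probe sets of PCDH8, PCDH10, PCDH15, PCDH18 and PCDH19 were all unmeasured, as was that of PCDH10-DT, a non-coding transcript beside PCDH10. PCDH8, PCDH10, PCDH18 and PCDH19 belong to the delta-2 subfamily, of which several members couple to actin regulators of the WAVE complex. All 4 PCDH10 probe sets had signals of 2.84 to 8.19 with FDFT1 and 0.169 to 6.56 with control vector. For PCDH10 and PCDH8, which are often methylated in tumours, these arrays therefore give no difference. PCDH17, also a delta-2 gene, had measured probe sets.

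No protocadherin probe set was at least 2-fold higher with FDFT1, and 2 were at least 2-fold lower. Over all 29891 measured probe sets 274 were at least 2-fold higher (0.917%) and 241 lower (0.806%), a split of 152 and 322 without the centring. Both lower members had a mean log2 signal under 5, where 4.15% of all measured probe sets differed by at least 2-fold in either direction. At 1.5-fold the protocadherins had 2 higher and 3 lower, against 5.63% and 4.63% of all measured probe sets. Of the 31 measured protocadherin probe sets, 25 differed by less than 0.5. Each difference is set beside the error of a probe set, estimated from genes with 2 probe sets in the same signal range. This error was 0.47 for a mean log2 signal under 5 (a signal of 32), 0.31 from 5 to 7 and 0.22 from 7 to 9, and it leaves out differences between cultures. By this measure 2 of the 31 (both beta) differed by more than 2 errors, against 7.41% of all measured probe sets.

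**Figure D2:**
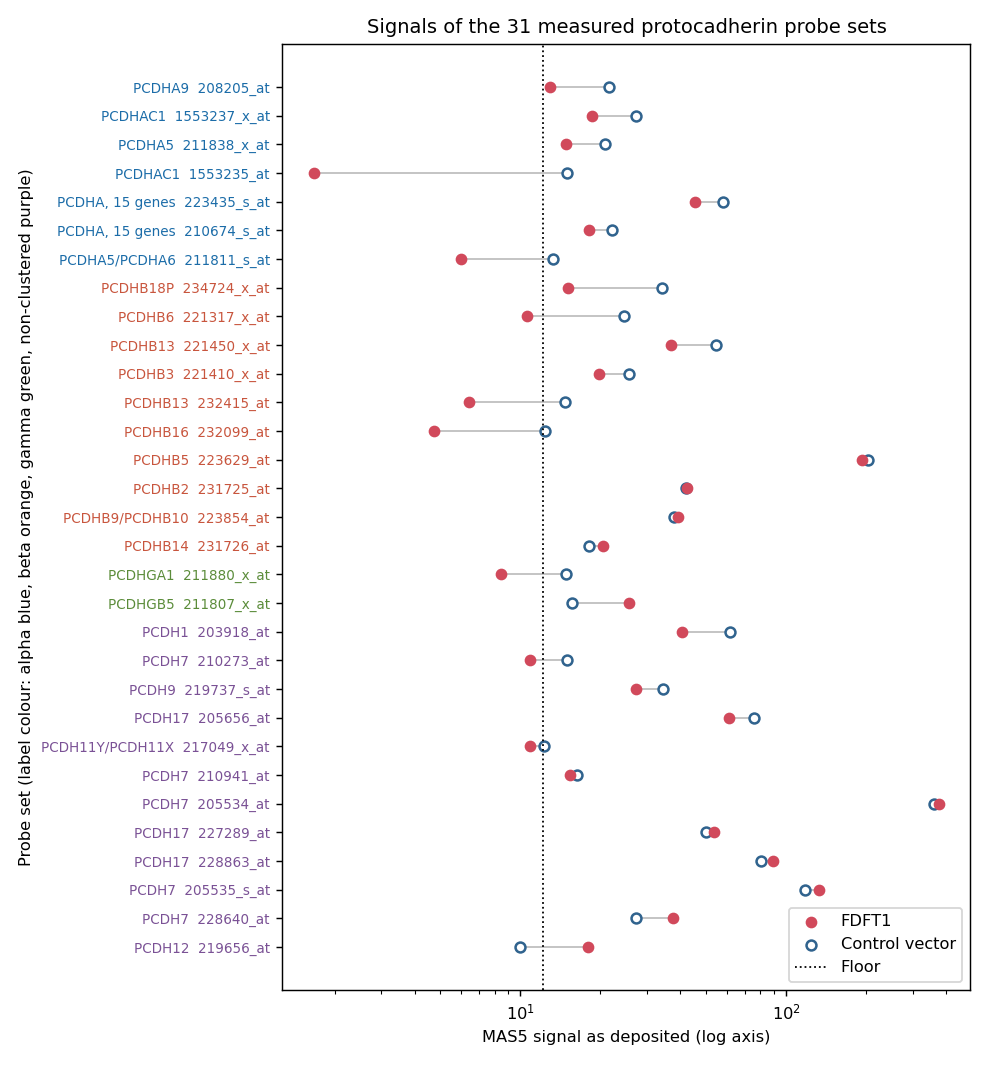
Deposited MAS5 signal (log x axis) of each measured protocadherin probe set (rows, coloured by class) on the FDFT1 array (filled points) and the control vector array (open points), with the floor of 12.2 as a dotted line. All 7 alpha rows have the FDFT1 point left of the control vector point, and 3 probe sets reach signals above 100 (PCDHB5 and 2 of PCDH7).

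The alpha cluster was lower with FDFT1 in every measured probe set, each time by less than 2 errors. Alpha proteins bind signalling kinases through a constant cytoplasmic tail. The 7 measured probe sets ranged from -0.63 to -0.12 with a median of -0.29, against a median of 0.0037 over all measured probe sets. In 2 of the 7 the FDFT1 signal was under the floor, so that they had to be below 0. In the other 5 both signals reached the floor, with a median of -0.38. With no floor, 4 of all 13 alpha probe sets were above 0, with a median of -0.18.

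Several alpha probe sets cannot be told apart by gene. Those listing all 15 alpha genes cannot assign their signal to a single promoter; the signal was 45.6 with FDFT1 and 57.9 with control vector for 223435_s_at (-0.24), and 18.1 and 22.1 for 210674_s_at (-0.19), FDFT1 first. Another probe set of this kind, 224212_s_at, was unmeasured at 1.3 and 0.805. So probe sets with the same listed genes did not have a common outcome against the floor. PCDHA5 and PCDHA6, whose promoters are printed above, shared 211811_s_at with 5.95 (FDFT1) and 13.3 (control vector), a bounded difference of -0.12. The probe sets shared by PCDHA2 and PCDHA3 were unmeasured.

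PCDHA9, an alpha gene whose promoter window held none of the forms, was the lowest of the alpha probe sets at -0.63, with a signal of 12.9 on the FDFT1 array and 21.5 on the control vector array. This lies at percentile 8.24 of all measured probe sets of the same signal range, within 2 errors of 0.47. PCDHAC1, a C-type gene, had 18.7 (FDFT1) and 27.2 (control vector) on 1553237_x_at (-0.44) and 1.67 and 14.9 on 1553235_at (-0.29, a bound). Both probe sets were lower with FDFT1, yet the second barely reached the floor on the control vector array alone and had to be below 0. PCDHA5 alone had 14.8 with FDFT1 and 20.8 with control vector (-0.38, error 0.47).

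The beta cluster held both members past 2-fold, and they were dim. PCDHB18P, a pseudogene of the cluster, had 15.1 with FDFT1 and 34.02 with control vector on 234724_x_at, a difference of -1.06 (2.09-fold lower, percentile 1.49). Its other probe set, 234479_at, was under the floor on both arrays (4.84 and 9.30, FDFT1 first). PCDHB6, an adhesion protein of the beta cluster, had 10.6 with FDFT1 and 24.5 with control vector on 221317_x_at, so it was at least 2.01-fold lower (-1.01, error 0.47). Its other probe set was also unmeasured, at 1.74 and 3.32. PCDHB6 was at -0.97 after quantile normalization, short of 2-fold.

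Both of these probe sets end in _x_at, which marks probes that can also match other transcripts, and beta genes are close copies of each other without introns. Values of such probe sets are therefore uncertain as to the gene. Of 19 measured clustered probe sets, 11 ended in _x_at or _s_at, and 10 of these 11 were below 0. The other 8 divided evenly, 4 above 0 and 4 below, with a median of 0.0023. Over all measured probe sets 47.4% of those ending in _x_at or _s_at were above 0 and 52.4% of the rest. With a mean log2 signal under 5 these shares were 52.0% and 55.1%. The part of cross-hybridisation in the clustered differences was not tested.

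Of the 4 beta probe sets with a mean log2 signal of 5 or more, PCDHB13 was lower by more than 1 error and the others differed by less than 1. PCDHB5 was the single clustered member above the 75th percentile of all signals (99.4), with 193 on the FDFT1 array and 204 on the control vector array. Its difference was 0.02 after centring and -0.08 as deposited, both far within the error of 0.22. PCDHB2 had 42.4 (FDFT1) and 42.1 (control vector), a difference of 0.11, and the probe set shared by PCDHB9 and PCDHB10 had 39.2 and 37.9, a difference of 0.15. The dimmer PCDHB14 was the highest beta member at 0.29, with 20.5 with FDFT1 and 18.1 with control vector (error 0.47). These genes carry the beta form of the promoter element, as do PCDHB13 and PCDHB3, which were below 0.

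PCDHB13 had both of its probe sets measured, with the second brightest probe set of the beta cluster among them. It had 37.0 (FDFT1) and 54.4 (control vector) on 221450_x_at (-0.45, error 0.31) and 6.41 and 14.7 on 232415_at (-0.27, a bound). The bounded one passed the floor on the control vector array alone and had to be below 0. PCDHB3 had 19.7 with FDFT1 and 25.7 with control vector on 221410_x_at (-0.28), while its other 2 probe sets were unmeasured. PCDHB16 only just reached the floor, with 4.71 and 12.4, and its bounded difference was -0.02. The 10 measured beta probe sets had a median of -0.15, and 4 of them were above 0. Without a bound, 7 remain, of which 4 were above 0, with a median of 0.02.

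The measured gamma probe sets pointed in opposite directions. PCDHGB5 had 25.6 with FDFT1 and 15.6 with control vector on 211807_x_at, the highest difference among protocadherins at 0.82 (1.76-fold, error 0.47, percentile 94.8). PCDHGA1 had 8.46 with FDFT1 and 14.8 with control vector on 211880_x_at, a bounded difference of -0.28 that had to be below 0. Both end in _x_at, both signals are near the floor, and both promoters carry the gamma form. Gamma proteins, needed for the survival of some interneurons in mice, are thus represented by 2 dim values only.

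**Figure D3:**
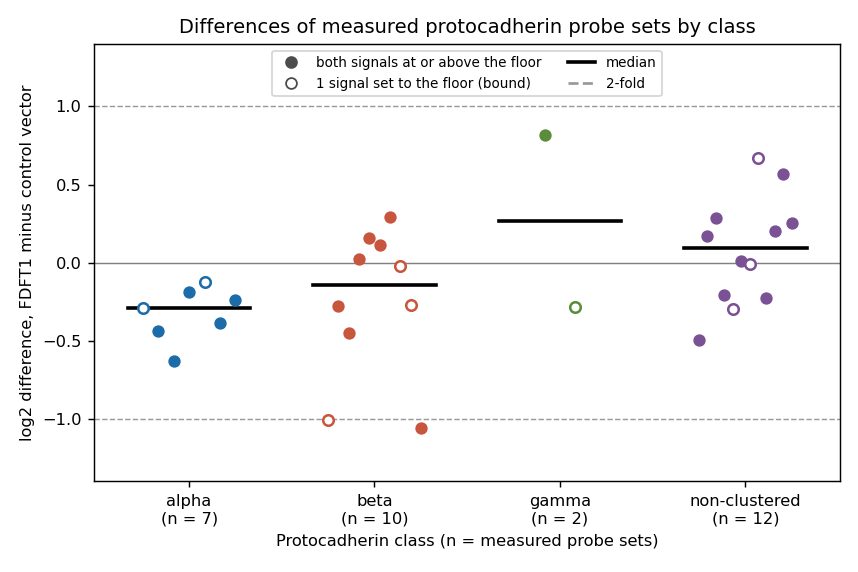
Log2 difference, FDFT1 minus control vector (y axis), of the measured probe sets of each class (x axis), with filled points where both signals reached the floor, open points where 1 was set to the floor, black bars for medians and dashed lines at 2-fold. All 7 alpha points lie below 0, 2 beta points lie below the lower dashed line, and the 12 non-clustered points spread from -0.50 to 0.67 around a median of 0.09.

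Clustered and non-clustered genes were then set side by side. The 19 measured clustered probe sets had 5 above 0 and 14 below, with a median of -0.27. The 12 measured non-clustered probe sets had a median of 0.09, with 7 above 0, 5 below and none past 2-fold. The medians of the groups differed by -0.36 (clustered minus non-clustered), and by -0.17 once probe sets ending in _x_at or _s_at were left out (8 clustered and 9 non-clustered). Probe sets in a group share cultures, arrays and partly sequence, so no test was made of this difference.

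The direction of the clustered group came mostly from dim probe sets. With a mean log2 signal under 5, 2 of 14 clustered and 2 of 5 non-clustered probe sets were above 0, against 54.3% of all measured probe sets in that range. At 5 or more, 3 of 5 clustered and 5 of 7 non-clustered were above 0, with medians of 0.02 and 0.20. All 6 clustered probe sets with 1 signal under the floor had it on the FDFT1 array, whereas over all probe sets of this kind it was 1929 of 4422 (43.6%). Members that pass the floor on 1 array alone had to differ in that direction, so these counts lend no support to a difference of the cluster. Without such members 5 of 13 clustered probe sets were above 0, with a median of -0.24. Of 9 non-clustered ones 6 were above 0, with a median of 0.17, a difference of medians of -0.41. Among these 13, PCDHB2, PCDHB5, PCDHB14 and the probe set shared by PCDHB9 and PCDHB10 were above 0 and end neither in _x_at nor in _s_at. The only other such probe set was that of PCDHA9, below 0. Over all 25469 probe sets with both signals at the floor or above the median was -0.0026.

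PCDH7 was the best measured protocadherin. It is a delta-1 protocadherin that binds protein phosphatase 1 and has been described as promoting lung tumour growth through MAP kinase signalling. All 5 of its probe sets were measured. On 205534_at the signal was 377 with FDFT1 and 361 with control vector (0.17, error 0.22). On 205535_s_at it was 133 with FDFT1 and 118 with control vector (0.29, error 0.22).

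The dimmer PCDH7 probe sets varied more. On 228640_at the signal was 37.5 with FDFT1 and 27.2 with control vector (0.57, error 0.31, percentile 95.1), the largest PCDH7 difference at 1.48-fold. On 210941_at it was 15.3 and 16.3 (0.01 after centring, but -0.09 as deposited, -0.05 by quantile and -0.07 by loess), and on 210273_at 10.9 and 14.98 (a bound of -0.30), FDFT1 first in both. The 4 PCDH7 probe sets with both signals at the floor or above were all above 0 after centring, while 210273_at entered through the control vector array alone and had to be below 0. Only 228640_at and 205535_s_at differed by more than 1 error, and none by more than 2.

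PCDH17, a delta-2 protocadherin that recruits actin regulators at contacts between axons, was measured on all 3 of its probe sets. They gave 88.9 with FDFT1 and 80.1 with control vector (0.26), 53.5 and 50.2 (0.20), and 60.9 and 75.7 (-0.21). The signs were mixed, and each value was within the error of 0.31.

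**Figure D4:**
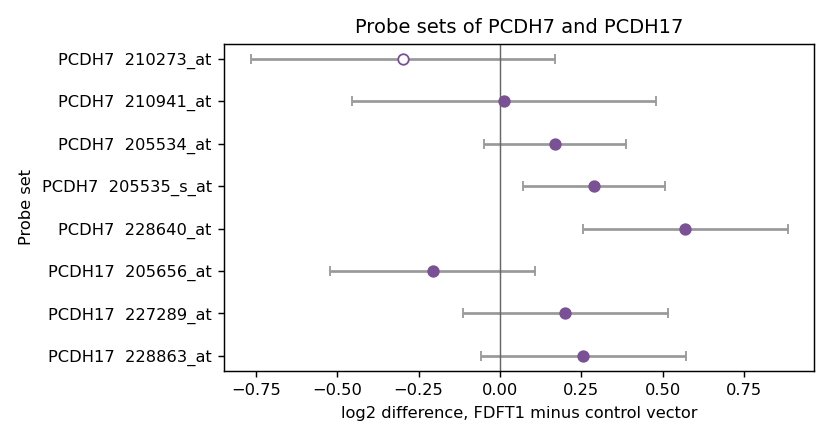
Log2 difference, FDFT1 minus control vector (x axis), of each probe set of PCDH7 and PCDH17 (rows), with bars of 1 probe-set error either side (0.22 to 0.47 by signal range) and an open point for the bounded value. For PCDH7, 2 of the 5 bars (228640_at and 205535_s_at) stay above 0, and for PCDH17 all 3 cross 0.

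The other non-clustered genes had 1 measured probe set each. PCDH1, an airway epithelial protocadherin of the delta-1 group, had 40.6 with FDFT1 and 61.8 with control vector on 203918_at. This was the lowest of the non-clustered group at -0.50 (1.41-fold, error 0.31, percentile 7.55). The other PCDH1 probe set was unmeasured, at 1.43 with FDFT1 and 1.53 with control vector. PCDH12, known from endothelial cells and trophoblast, had 18.0 and 9.92, at least 1.59-fold higher with FDFT1 (0.67, error 0.47). The 2 genes thus stood at opposite ends of the group, but PCDH12 passed the floor on the FDFT1 array alone and had to be above 0. Endothelial CDH5 and VWF were under the floor on both arrays (at most 1.64 and 8.23). PECAM1 had 22.7 with FDFT1 and 18.4 with control vector on 1 of its 5 probe sets, and the rest were unmeasured. The part of endothelial genes in the PCDH12 value was not tested.

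PCDH9, another delta-1 gene, had 27.3 with FDFT1 and 34.5 with control vector on 219737_s_at (-0.23), while its other 3 probe sets were unmeasured. PCDH11X and PCDH11Y, close copies on the sex chromosomes, share 4 probe sets that cannot tell them apart. Of these 217049_x_at just reached the floor (10.8 and 12.3, FDFT1 first) with a bounded difference of -0.01. The rest were unmeasured, as was 208366_at, which lists PCDH11X alone (4.01 and 0.355, FDFT1 first). PCDH15 had 2 unmeasured probe sets.

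**Figure D5:**
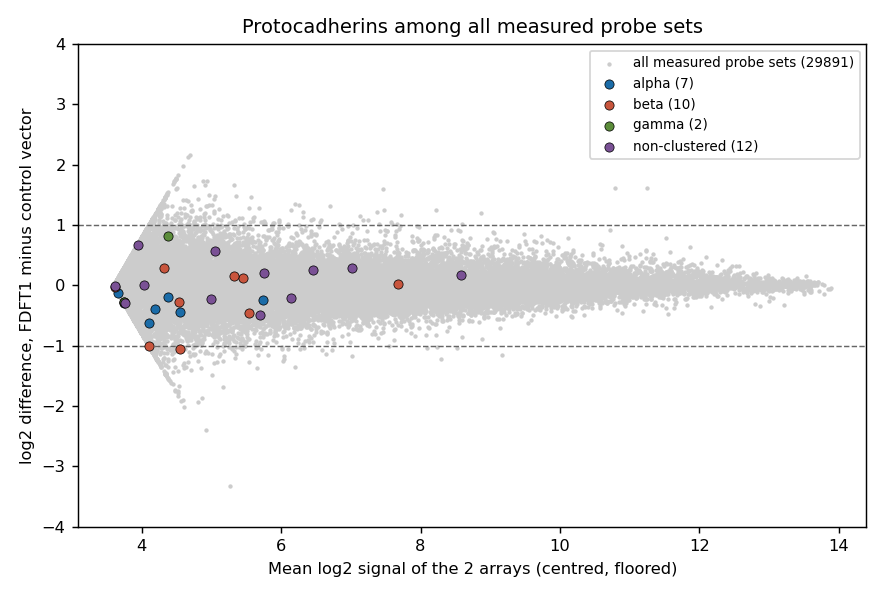
Log2 difference, FDFT1 minus control vector (y axis), against the mean log2 signal of both arrays after centring and flooring (x axis), for all 29891 measured probe sets (grey) and the 31 measured protocadherin probe sets (coloured by class), with dashed lines at 2-fold. The protocadherins lie mostly at the dim end where grey points spread widest, and 2 beta points are below the lower dashed line.

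Genes known to control the clustered promoters were bright, and none was past 2-fold. For these and the next lists a gene takes its brightest measured probe set, and over all 13106 measured genes 0.656% were at least 2-fold higher and 0.649% lower, with a median of -0.0012. Of 16 regulators (CTCF, cohesin, its loaders, and silencing factors) all were measured, with a median of 0.0091, 9 above 0, 7 below and none past 2-fold. CTCF, which loops the clustered promoters to their enhancers, had 921 with FDFT1 and 934 with control vector (0.09). The cohesin subunit SMC3 was the highest at 0.48 (2236 with FDFT1 and 1727 with control vector, error 0.16), but only 2 of its 4 probe sets were above 0. SMCHD1, which represses the clusters in mice, was at 0.25 with 3 of 4 probe sets above 0.

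On the other side, the DNA methyltransferase DNMT3A was at -0.31 (129 with FDFT1 and 171 with control vector), with 2 of its 3 probe sets above 0. The histone methyltransferase SETDB1 was at -0.25 (163 and 208, FDFT1 first), with 1 of 2 above 0. None of these 4 genes had probe sets that all moved one way.

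Of 20 protocadherin partners and processing proteases 16 were measured, with a median of -0.06, 7 above 0, 9 below and none past 2-fold. NCSTN, nicastrin of the gamma-secretase that cleaves protocadherins after ADAM10, was the lowest at -0.83 (189 with FDFT1 and 362 with control vector, error 0.22), below 0 on both probe sets. TAOK2, a kinase linked to PCDH8 signalling, was at -0.72 (65.5 and 116, FDFT1 first, error 0.31), below 0 on all 3. ADAM10 itself was at 0.12. The focal adhesion kinase PTK2, inhibited by alpha and gamma protocadherins, was at 0.35 (917 with FDFT1 and 776 with control vector), above 0 on 3 of 4 probe sets. The highest after it was CTNNB1, beta-catenin, at 0.24, above 0 on 1 of 3.

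Genes beside and between the clusters on chromosome 5 were measured in 11 of 12 cases. Their median was -0.02, with 5 above 0 and 6 below and none past 2-fold. The highest were DIAPH1 at 0.14 and DND1 at 0.07, and the lowest were RELL2 at -0.35 (135 with FDFT1 and 184 with control vector, error 0.22) and HARS2 at -0.22. TAF7, which lies between the beta and gamma clusters, was at 0.02 (1721 and 1829, FDFT1 first). SLC25A2 beside it was under the floor on both arrays.

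Most of the wider cadherin superfamily was also dim. Of 40 other cadherins 37 had a probe set and 13 were measured, 6 above 0 and 7 below, with a median of -0.06. CLSTN3, a calsyntenin of synapses, was the 1 gene past 2-fold, at 1.03 (33.9 with FDFT1 and 17.8 with control vector, error 0.47) on 1 probe set. CDH6 was at 0.56 as a bound, CDH24 at -0.71 with 2 of 2 probe sets below 0, and CDH26 at -0.63 as a bound. FAT1, the giant atypical cadherin, was at 0.04 (317 with FDFT1 and 332 with control vector). CDH2, N-cadherin, was under the floor on both arrays, as CDH1 was.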

How the data were processed

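Each of the 2 samples had 1 Affymetrix array. The authors deposited MAS5 signal intensities on a linear scale, 1 per probe set (per the submitters' processing notes, which name MAS5). Its version and scaling target: not given in the sources used here. MAS5 scales each array as a whole, so a shift between arrays can remain. Calculations used Python 3.11.15, numpy 2.4.6, pandas 2.3.3, statsmodels 0.14.6 and matplotlib 3.10.9.

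The 62 control probe sets were set aside. The FDFT1 array was multiplied by 1.08, from the median log2 difference over 25203 probe sets at or above the floor on both arrays; the floor was then set. Symbols came from GEO's platform annotation, and all 63 matched the GRCh38.p14 gene table. To estimate the probe-set error, the differences of a gene's 2 brightest probe sets without a bound were subtracted, and the SD over genes of a signal range was divided by the square root of 2. The members and lists were chosen with earlier results of these data known.

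Named with values are members past 2-fold, up to 5 each way among clustered and among non-clustered genes, those above the 75th percentile, shared measured probe sets, genes with at least 2 measured probe sets, and up to 2 each way of each list. CTCF, ADAM10, TAF7, FAT1, CDH1, CDH2, PECAM1, the other members and the cell type markers given were added after their values were seen. Alternatives were other scalings, floors, thresholds and units, and the steps were tested on simulated data. With 1 array per group the number of arrays limits the precision.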

Additional observations from a re-analysis of the deposited data

How the results depend on the processing

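No paired analysis was possible because each group has 1 array. Under values as deposited, loess, the brightest or mean probe set per gene, and single-gene probe sets, the count of protocadherins at least 2-fold lower remained 2, that of higher ones 0, and the clustered median stayed below the non-clustered one. The lower count was 1 after quantile normalization and with the floor set before the centring (chosen after seeing the data). It was 0 at 3-fold, 0 with the floor at the 75th percentile (3 members left, as fewer pass), and 0 without _x_at and _s_at probe sets, where the clustered median was 0.0023 and the group difference -0.17. At 1.5-fold 2 members were higher and 3 lower. With no floor all 89 entered, with 12 higher and 14 lower, a clustered median of -0.17 and a non-clustered one of 0.20; over all probe sets 6158 were then higher and 5318 lower. With the floor at the 75th percentile the clustered median was 0.027 (1 probe set) and the non-clustered median 0.23 (2), the difference was -0.20, 100% of either were above 0, and 16 of all probe sets were higher and 5 lower. Most members were too dim for a difference to be read.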
